A study of Mus musculus with 7 samples.

Results

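The genes described here are 40 transcripts of T cells and natural killer (NK) cells. They were measured in tumour macrophages of mice that carried MC38, a murine colon cancer cell line. They were chosen as a list of gene symbols, from the T cell receptor complex, the CD4 and CD8 lineages, NK receptors, cytotoxic granules and inhibitory receptors. Of the 40 genes, 39 had a row among the 53379 genes of the table, and the counts of Bcl11b were not analysed here. The filter on low counts kept 38 of the 39 among 16234 genes tested, and the remaining gene was Cd28. Each of the 7 libraries came from 1 C57BL/6J mouse fed a high-fat diet and sampled 21 days after implantation of the tumour cells. The 4 wild-type mice carried Gpr65, a receptor that senses extracellular protons, and the 3 knockout mice lacked it. Macrophages were sorted as cells positive for CD45, CD11b and F4/80. How the knockout allele was made, whether it is limited to a cell type, and the age and sex of the mice are not given in the sources used here.

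T cells recognise antigen through a T cell receptor that signals through the CD3 and zeta chains, the kinases LCK and ZAP70 and the adaptor LAT. CD8 T cells and NK cells kill target cells with perforin and granzymes and secrete interferon gamma, while FOXP3 marks regulatory T cells that restrain them. In tumours, T cells that meet antigen for long carry inhibitory receptors such as PD-1 and LAG3. The CD3 chains define T cells, F4/80 marks macrophages, and some NK cells and activated CD8 T cells carry CD11b.

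Total counts lay between 22449772 and 30483733 per library. Gpr65 was 90.9 ± 19.4 CPM (counts scaled to library size, SD, n = 4) in wild-type and 0.921 ± 0.215 CPM (SD, n = 3) in knockout mice, with no overlap between the groups. The macrophage markers Cd68 and Csf1r measured 1080 to 1293 CPM and 1805 to 3264 CPM over all libraries. Knockout 1 stood apart from the other libraries, with 940 tested genes at 0 counts against 51 to 281 elsewhere. Of the 39 members, 11 were at 0 counts in knockout 1 and at most 3 in any other library. The first principal component, computed on the most variable tested genes only, held 44.2% of their variance. On it, knockout 1 lay at -68.51 and the other libraries between -2.3 and 27.99. Fold changes are therefore given with and without knockout 1, and also without knockout 3.

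The T and NK cell transcripts differed widely between mice of 1 genotype, and most of them were highest in knockout 3. The CPM of the 39 members summed to 178, 408, 487 and 538 in wild-type mice 1 to 4 and to 127, 389 and 1802 in knockout mice 1 to 3. The 12 macrophage markers summed to between 23560 and 46640 CPM, with Lyz2 and C1qb as the largest parts in knockout 2, at 12600 and 11740 CPM. Of the 38 tested members, 33 were highest in knockout 3 (86.8%), where 11.9% of all tested genes were highest. Knockout 1 was the lowest library, or tied for it, for 24 of the 38, against 26.4% of all tested genes. Counts of a bulk sample cannot tell more T cells apart from more RNA per T cell. They also do not give the type of cell that held a transcript, and the source of the member transcripts was not tested.

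**Figure D1:**
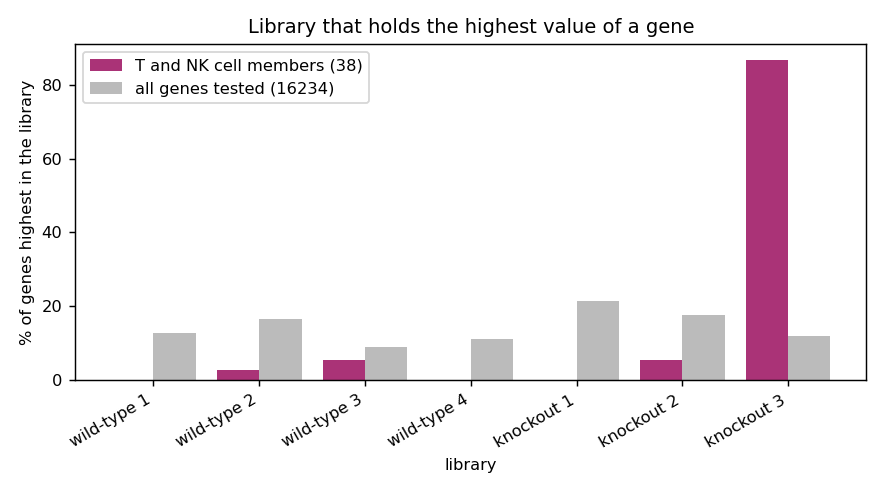
Share of genes (vertical axis, %) whose highest value lies in each library (horizontal axis), for the 38 tested members and for all 16234 tested genes. Of the members, 86.8% were highest in knockout 3, against 11.9% of all tested genes.

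The CD3 chains bind to the T cell receptor and carry its signal into the cell. Cd3e (chromosome 9, 44998740 to 45009627, minus strand, GRCm38) measured 1.25, 3.55, 8.63 and 6.43 CPM in wild-type mice 1 to 4 and 0.444, 3.54 and 49.9 CPM in knockout mice 1 to 3. Its neighbour Cd3d measured 2.58, 13.6, 8.93 and 11.6 CPM in wild-type mice 1 to 4 and 0, 5.08 and 32.1 CPM in knockout mice 1 to 3. Knockout 3 lay above all other libraries for both genes, and knockout 1 below them.

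Cd3g, which lies beside Cd3d, measured 2.41, 10.5, 11.5 and 9.79 CPM in wild-type mice 1 to 4 and 1.98, 9.07 and 64.04 CPM in knockout mice 1 to 3. Cd247, which encodes the zeta chain, measured 0.998, 4.67, 5.18 and 5.34 CPM in wild-type mice 1 to 4 and 0, 1.99 and 12.8 CPM in knockout mice 1 to 3. The 4 chains together summed to 7.24, 32.3, 34.2 and 33.2 CPM in wild-type mice 1 to 4 and to 2.43, 19.7 and 159 CPM in knockout mice 1 to 3. The wild-type mice other than wild-type 1 thus lay close together, while the knockout mice ranged from below the lowest to above the highest of them. The groups overlapped for each chain. In knockout 1 the chains were detected unevenly, with 58 counts of Cd3g and 13 of Cd3e beside 0 counts of Cd3d and of Cd247, where a count of 0 allows up to 0.103 CPM. Exons of Cd247 overlap Pou2f1 on the opposite strand and Gm16565, and 55.9% of the 50-base words of Cd247 transcripts also occur in transcripts of other genes, so its counts are uncertain.

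**Figure D2:**
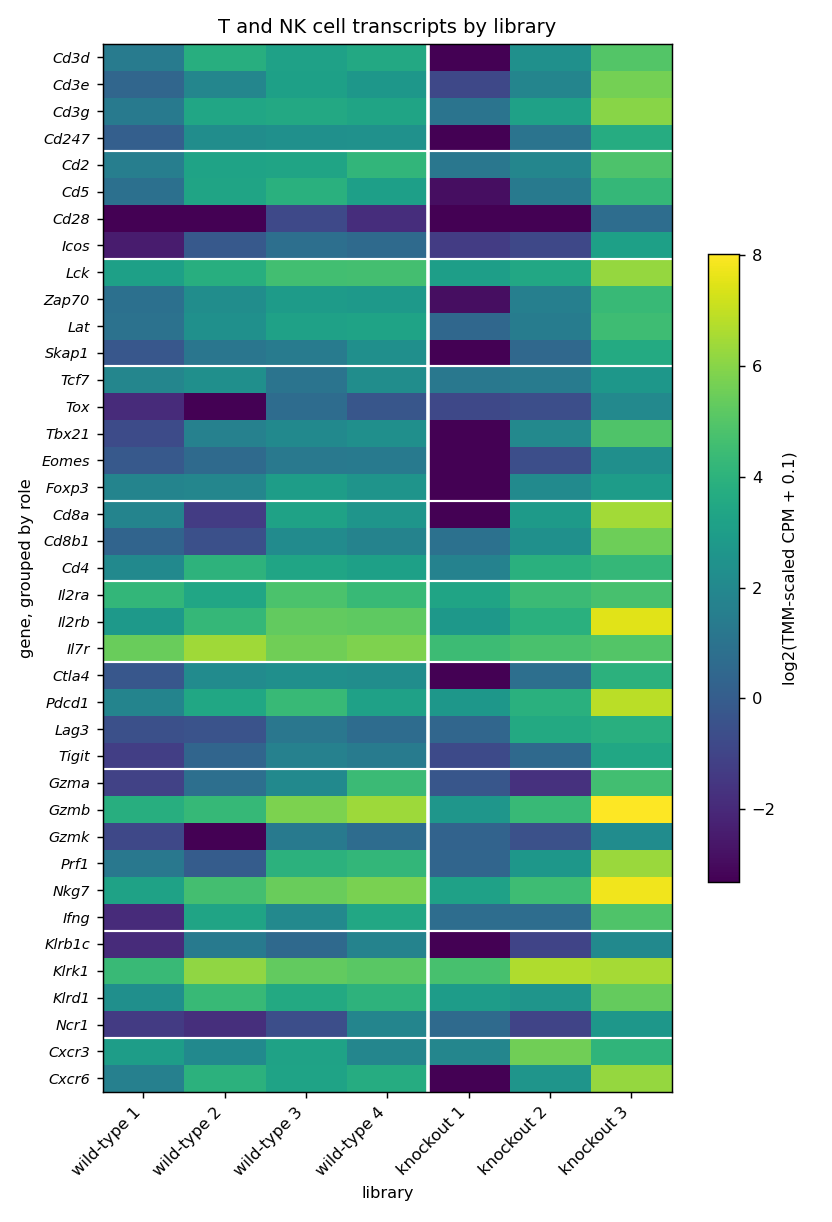
Level of the 39 members in each library, as log2 of TMM-scaled CPM plus 0.1 (colour), with genes in rows by role and libraries in columns. Knockout 3 is the brightest column in most rows, and 11 members are at 0 counts in knockout 1.

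LCK and ZAP70 are kinases, and LAT and SKAP1 adaptors, that pass on the signal of the receptor. Lck measured 8.57, 13.9, 24.4 and 24.5 CPM in wild-type mice 1 to 4 and 8.27, 11.2 and 74.4 CPM in knockout mice 1 to 3. Zap70 measured 1.71, 4.67, 7.47 and 6.798 CPM in wild-type mice 1 to 4 and 0.0342, 2.85 and 19.8 CPM in knockout mice 1 to 3. For both, knockout 3 was highest and knockout 1 lowest, although Lck kept 8.27 CPM in knockout 1 where Zap70 had 1 count.

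Lat measured 1.87, 5.09, 8.83 and 9.54 CPM in wild-type mice 1 to 4 and 1.298, 2.604 and 22.9 CPM in knockout mice 1 to 3. Skap1 measured 0.749, 2.12, 2.56 and 5.01 CPM in wild-type mice 1 to 4 and 0, 1.34 and 12.3 CPM in knockout mice 1 to 3. These adaptors had the same order of knockout libraries as the kinases.

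CD2 is an adhesion receptor, CD5 dampens receptor signals, and CD28 and ICOS are co-stimulatory receptors. Cd2 measured 2.83, 9.45, 9.82 and 17.7 CPM in wild-type mice 1 to 4 and 2.15, 3.66 and 28.9 CPM in knockout mice 1 to 3. Cd5 measured 1.71, 9.92, 14.7 and 8.52 CPM in wild-type mice 1 to 4 and 0.0342, 2.44 and 19.01 CPM in knockout mice 1 to 3. Icos measured 0.0832, 0.8103, 1.66 and 1.43 CPM in wild-type mice 1 to 4 and 0.307, 0.448 and 8.602 CPM in knockout mice 1 to 3. Wild-type 1 was the lowest wild-type mouse for these 3 genes, and knockout 3 was above every wild-type mouse. Cd28 had 14 and 5 counts in wild-type 3 and wild-type 4 and 43 counts in knockout 3, and 0 counts in the other libraries.

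Among the co-receptor genes, those of CD8 set knockout 3 apart more than Cd4 did. Cd8a (chromosome 6, 71373427 to 71379173, plus strand, GRCm38), a chain of the CD8 co-receptor for MHC class I, measured 3.37, 0.309, 9.36 and 5.88 CPM in wild-type mice 1 to 4 and 0, 7.24 and 86.6 CPM in knockout mice 1 to 3. Its partner Cd8b1 measured 1.17, 0.579, 4.31 and 3.25 CPM in wild-type mice 1 to 4 and 1.81, 5.13 and 45.9 CPM in knockout mice 1 to 3. Knockout 3 was 18.7 times the median of the other libraries for Cd8a and 18.1 times for Cd8b1.

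Cd4, the co-receptor for MHC class II, measured 4.12, 15.9, 10.1 and 8.59 CPM in wild-type mice 1 to 4 and 3.18, 14.7 and 19.04 CPM in knockout mice 1 to 3. Its level in knockout 3 was 2.04 times the median of the other libraries, and the groups overlapped. Within a library, the 2 CD8 genes took 87.4% of the counts of Cd8a, Cd8b1 and Cd4 in knockout 3, with an exact binomial 95% interval of 86.4% to 88.4%. The same share was 52.4%, 57.5% and 51.5% in wild-type 1, 3 and 4 and 36.3% and 45.7% in knockout 1 and 2. Wild-type 2 stood at the other end, with 5.29% (interval 3.38% to 7.83%). These intervals cover counting error only, because reads copied by PCR are not independent molecules, and shares of counts do not compare levels between genes of unequal length.

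**Figure D3:**
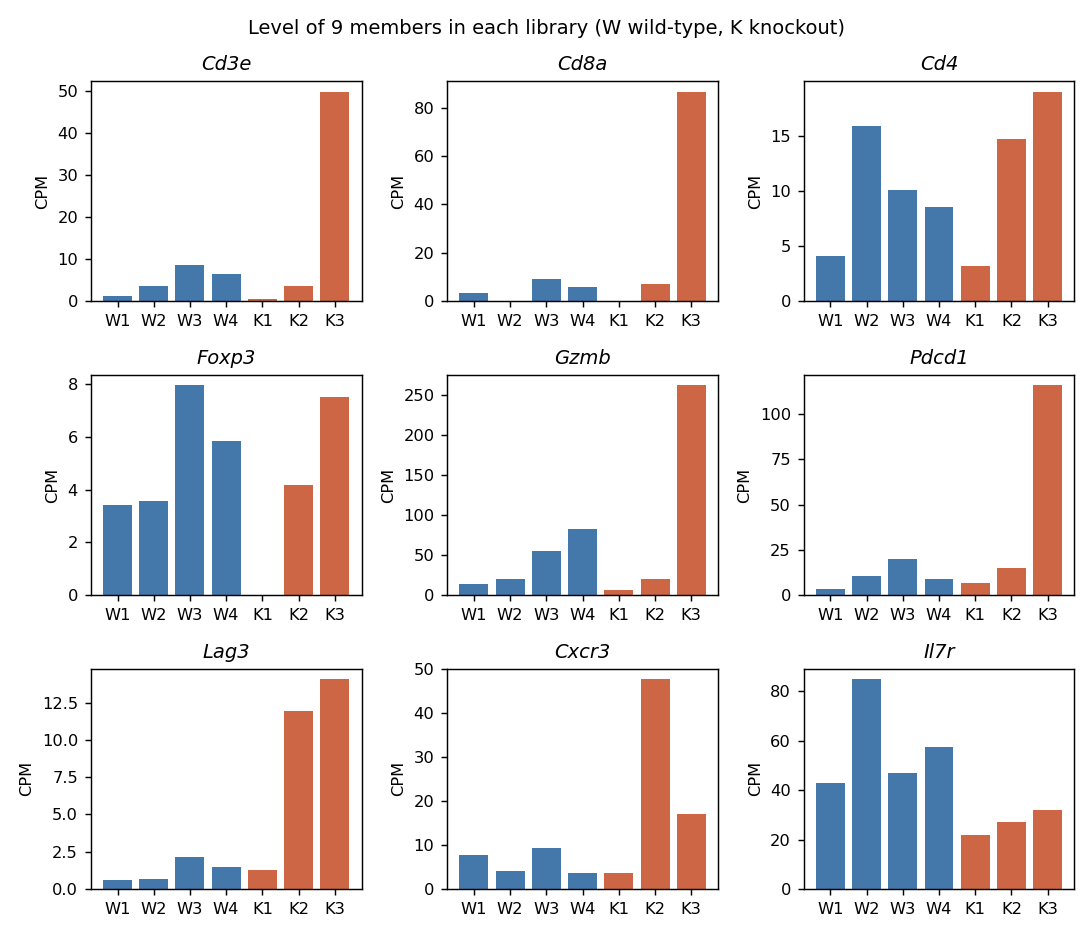
CPM (vertical axis, from 0, scaled per gene) of 9 members in the 4 wild-type libraries (W1 to W4) and 3 knockout libraries (K1 to K3). Knockout 3 exceeds the other libraries for Cd3e, Cd8a, Gzmb and Pdcd1, knockout 2 is highest for Cxcr3, and all 3 knockout libraries are below the wild-type libraries for Il7r.

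FOXP3, the factor of regulatory T cells, did not follow CD8. Foxp3 measured 3.41, 3.59, 7.96 and 5.85 CPM in wild-type mice 1 to 4 and 0, 4.19 and 7.54 CPM in knockout mice 1 to 3. Wild-type 3 was its highest library, and knockout 3 lay within the wild-type range. Of the counts of Foxp3 and the 3 CD3 chain genes on chromosome 9, Foxp3 took 4.91% in knockout 3 (exact binomial interval 4.27% to 5.61%) and between 11.5% and 35.3% in wild-type mice. Knockout 2 had 19.1%, and knockout 1 had 0 of 71 counts, with an interval that reaches 5.06%. Foxp3 shares 23.1% of its 50-base words with overlapping genes, most of them on the opposite strand.

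T-bet and EOMES drive the cytotoxic programme of CD8 T and NK cells. Tbx21, which encodes T-bet, measured 0.499, 3.05, 4.11 and 4.97 CPM in wild-type mice 1 to 4 and 0, 3.95 and 29.8 CPM in knockout mice 1 to 3. Eomes measured 0.7904, 1.43, 2.29 and 2.41 CPM in wild-type mice 1 to 4 and 0, 0.5695 and 4.999 CPM in knockout mice 1 to 3. Both were at 0 counts in knockout 1 and highest in knockout 3.

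TCF-1 marks naive and stem-like T cells and TOX marks T cells under lasting stimulation. Tcf7, which encodes TCF-1, measured 3.58, 4.94, 1.99 and 4.68 CPM in wild-type mice 1 to 4 and 2.25, 2.52 and 6.36 CPM in knockout mice 1 to 3. Tox measured 0.166, 0, 1.49 and 0.731 CPM in wild-type mice 1 to 4 and 0.444, 0.5695 and 3.97 CPM in knockout mice 1 to 3. Tcf7 varied 3.19-fold between its lowest and highest library, where Cd3e varied 112-fold.

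Of all members, Nkg7 and Gzmb had the highest mean level per length. Nkg7, a granule membrane protein gene, stood at 35.8 CPM per kilobase of exon in the wild-type mean and at 243 in knockout 3, and Gzmb, which encodes granzyme B, at 29.8 and 182. Cd3e stood at 1.22 and 12.2 on the same scale. Granule genes were among the members highest in knockout 3, so the 250 bases before the RefSeq transcript start (GRCm38.p6) of the 5 granule genes are shown in the sense of the gene, with the RUNX core word TGTGGT or its reverse complement ACCACA in capitals.
Gzma (chr13:113100982-113101231, minus strand): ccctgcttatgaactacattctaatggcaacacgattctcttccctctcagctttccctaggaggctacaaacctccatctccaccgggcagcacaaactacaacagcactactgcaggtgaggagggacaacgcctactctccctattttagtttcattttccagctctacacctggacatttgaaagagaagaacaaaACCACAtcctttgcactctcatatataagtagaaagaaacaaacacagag
Gzmb (chr14:56262335-56262584, minus strand): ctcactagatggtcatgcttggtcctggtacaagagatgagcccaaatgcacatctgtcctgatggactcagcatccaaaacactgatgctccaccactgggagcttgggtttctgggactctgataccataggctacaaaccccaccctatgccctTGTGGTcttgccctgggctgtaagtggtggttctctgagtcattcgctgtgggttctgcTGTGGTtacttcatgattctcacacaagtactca
Gzmk (chr13:113180966-113181215, minus strand): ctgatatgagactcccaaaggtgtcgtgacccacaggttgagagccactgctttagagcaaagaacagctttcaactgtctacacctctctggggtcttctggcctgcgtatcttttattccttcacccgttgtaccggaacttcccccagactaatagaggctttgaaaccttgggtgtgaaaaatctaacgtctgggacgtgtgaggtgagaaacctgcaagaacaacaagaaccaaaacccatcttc
Nkg7 (chr7:43436888-43437137, plus strand): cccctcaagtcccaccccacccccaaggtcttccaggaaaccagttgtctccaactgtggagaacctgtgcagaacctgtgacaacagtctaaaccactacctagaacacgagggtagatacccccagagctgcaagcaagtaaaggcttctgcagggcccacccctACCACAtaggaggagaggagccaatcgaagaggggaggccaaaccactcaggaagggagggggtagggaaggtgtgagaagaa
Prf1 (chr10:61297586-61297835, plus strand): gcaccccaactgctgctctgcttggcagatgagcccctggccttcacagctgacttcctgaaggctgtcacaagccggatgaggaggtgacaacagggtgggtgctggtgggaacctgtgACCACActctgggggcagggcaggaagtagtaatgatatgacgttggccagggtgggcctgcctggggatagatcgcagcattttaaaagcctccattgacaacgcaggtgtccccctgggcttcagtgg
RUNX factors act in CD8 T and NK cells. Of the 5 windows, 4 held the word and that of Gzmk did not, nor did that of Ifng. The RefSeq table held a window for 30 members, which include Bcl11b. The word TGTGGT, on either strand, was present in the 250-base window of 12 of the 30 (40%), but not in that of Bcl11b. Of all genes with a window, 15.9% held it. The ETS word CGGAAG was found for 1 of the 30 (15.3% of all genes), the TCF word CTTTGAA for 2 (5.19%) and the T-box word GGTGTGA for 2 (3.84%). No match of TGTGGT in these windows overlapped a match of the other words. A match is a description of letters and does not show binding.

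Gzmb measured 13.98, 19.5, 54.9 and 82.5 CPM in wild-type mice 1 to 4 and 6.22, 19.9 and 262 CPM in knockout mice 1 to 3. Nkg7 measured 9.19, 24.7, 42.7 and 54.3 CPM in wild-type mice 1 to 4 and 9.02, 22.4 and 222 CPM in knockout mice 1 to 3. Prf1, which encodes the pore-forming protein perforin, measured 2.21, 0.887, 15.8 and 18.1 CPM in wild-type mice 1 to 4 and 1.196, 6.35 and 79.7 CPM in knockout mice 1 to 3. Among wild-type mice, 3 and 4 were higher than 1 and 2 for these genes, and knockout 3 was above them all.

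Gzma, which encodes granzyme A, measured 0.374, 1.66, 4.11 and 20.98 CPM in wild-type mice 1 to 4 and 0.718, 0.203 and 24.1 CPM in knockout mice 1 to 3. Gzmk, which encodes granzyme K, measured 0.458, 0, 2.36 and 1.53 CPM in wild-type mice 1 to 4 and 1.13, 0.6102 and 4.45 CPM in knockout mice 1 to 3. Ifng, the gene of interferon gamma, measured 0.166, 9.92, 3.95 and 11.3 CPM in wild-type mice 1 to 4 and 1.57, 1.59 and 29.9 CPM in knockout mice 1 to 3. Wild-type 4 came close to knockout 3 for Gzma, with 20.3% of the counts of Gzma and Gzmb (exact binomial interval 18.8% to 21.8%) against 8.43% in knockout 3 (7.83% to 9.07%) and 1.01% in knockout 2 (0.330% to 2.35%). Ifng shares 19.9% of its 50-base words with the overlapping Gm49751, which had 61 counts over all libraries.

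Of the 4 NK receptors, 3 were highest in knockout 3 and Klrk1 was highest in knockout 2. Ncr1, which encodes the activating receptor NKp46, measured 0.291, 0.193, 0.564 and 3.51 CPM in wild-type mice 1 to 4 and 1.44, 0.407 and 6.396 CPM in knockout mice 1 to 3. Klrb1c, which encodes NK1.1, measured 0.166, 2.39, 1.39 and 3.29 CPM in wild-type mice 1 to 4 and 0, 0.407 and 4.08 CPM in knockout mice 1 to 3. Wild-type 4 was the highest wild-type mouse for both. The counts of these 2 genes were 19.6% of theirs and the CD3 chains' counts in wild-type 4 (exact binomial interval 17.1% to 22.3%), 6.69% in knockout 3 (5.96% to 7.49%) and 37.2% in knockout 1 (28.3% to 46.8%), where the total was 113 counts. Klrb1c shares 17.0% of its words with Gm44511 and other Klrb1 genes.

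Klrd1, which encodes CD94, measured 4.91, 20.3, 11.98 and 15.97 CPM in wild-type mice 1 to 4 and 7.62, 5.899 and 40.2 CPM in knockout mice 1 to 3. Klrk1, which encodes the activating receptor NKG2D, measured 20.3, 70.03, 39.95 and 34.4 CPM in wild-type mice 1 to 4 and 26.1, 102 and 89.9 CPM in knockout mice 1 to 3. Klrk1 varied 4.99-fold between libraries, and the groups overlapped.

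**Figure D4:**
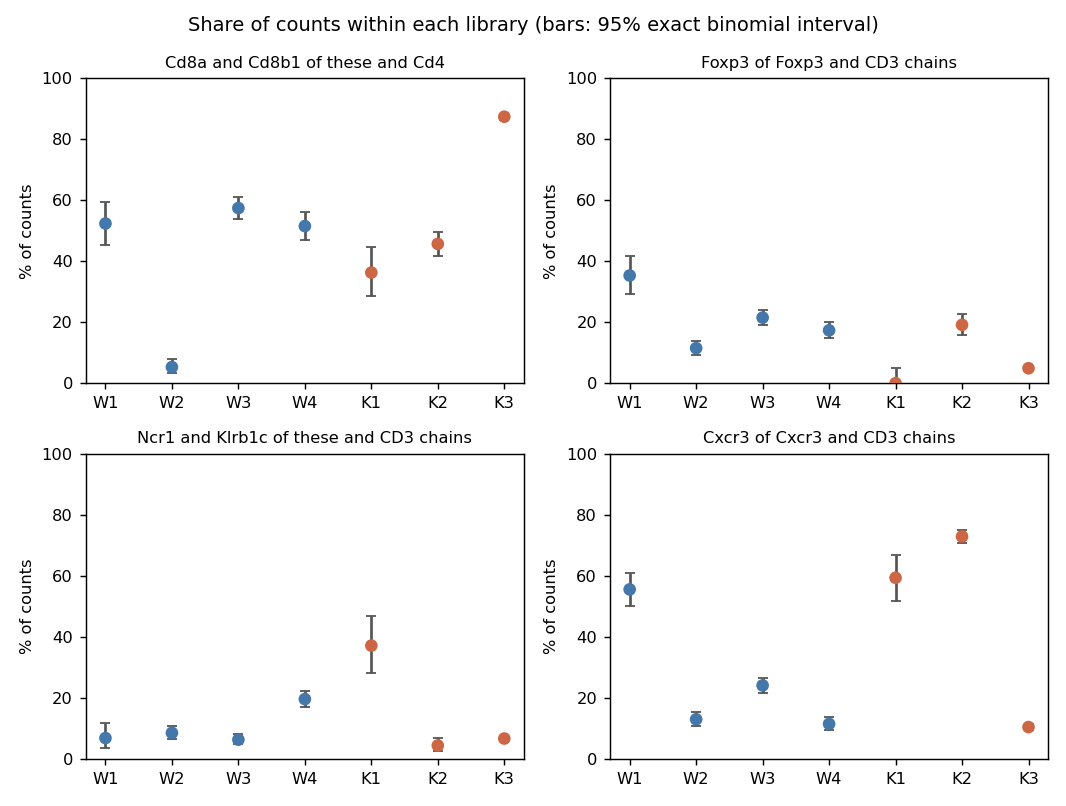
Share of counts (vertical axis, %) within each of the 7 libraries (W wild-type, K knockout), with bars for the 95% exact binomial interval, which covers counting error only. CD8 genes take 87.4% in knockout 3 and 5.29% in wild-type 2, and Cxcr3 takes 73.0% in knockout 2 and 10.4% in knockout 3.

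Inhibitory receptors included 2 of the members with the largest fold changes. Pdcd1, which encodes PD-1, measured 3.37, 10.7, 19.9 and 8.92 CPM in wild-type mice 1 to 4 and 6.42, 14.8 and 116 CPM in knockout mice 1 to 3. Lag3, which encodes a receptor for MHC class II, measured 0.582, 0.656, 2.16 and 1.498 CPM in wild-type mice 1 to 4 and 1.26, 11.96 and 14.1 CPM in knockout mice 1 to 3. For Lag3, knockout 2 and 3 were both above every wild-type mouse, while knockout 1 lay within the wild-type range. For Pdcd1 only knockout 3 was above the wild-type range.

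Ctla4, which encodes a competitor of CD28, measured 0.749, 4.32, 4.91 and 4.64 CPM in wild-type mice 1 to 4 and 0, 1.67 and 15.8 CPM in knockout mice 1 to 3. Tigit measured 0.333, 1.196, 3.05 and 2.56 CPM in wild-type mice 1 to 4 and 0.478, 1.38 and 10.8 CPM in knockout mice 1 to 3. Both followed the order of the CD3 chains among knockout mice.

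The 3 interleukin receptors differed from each other in their highest library. Il2rb, the beta chain of the receptors for IL-2 and IL-15, measured 6.86, 18.9, 39.4 and 37.2 CPM in wild-type mice 1 to 4 and 6.53, 14.5 and 183 CPM in knockout mice 1 to 3. Il2ra, the alpha chain of the IL-2 receptor, measured 18.3, 10.3, 28.5 and 19.96 CPM in wild-type mice 1 to 4 and 9.84, 21.6 and 26.8 CPM in knockout mice 1 to 3. Il7r, the alpha chain of the IL-7 receptor, measured 43.02, 84.9, 47.1 and 57.5 CPM in wild-type mice 1 to 4 and 21.9, 27.01 and 31.9 CPM in knockout mice 1 to 3. Il2rb was highest in knockout 3, Il2ra varied 2.89-fold with overlapping groups, and Il7r was lower in each knockout mouse than in each wild-type mouse. In knockout 1, Il7r had 640 counts, Klrk1 764, Il2ra 288 and Lck 242. That library had 0 counts of Cd3d and Cd247, 13 of Cd3e, 58 of Cd3g and 146 of the receptor constant segment Trac. The source of these transcripts was not tested.

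The chemokine receptors CXCR3 and CXCR6 guide T and NK cells into inflamed tissue. Cxcr6, the receptor for CXCL16, measured 2.95, 15.4, 9.66 and 12.9 CPM in wild-type mice 1 to 4 and 0, 6.02 and 74.4 CPM in knockout mice 1 to 3. Cxcr3, the receptor for CXCL9 and CXCL10, measured 7.82, 4.13, 9.22 and 3.62 CPM in wild-type mice 1 to 4 and 3.55, 47.8 and 17.02 CPM in knockout mice 1 to 3. Cxcr6 followed the CD3 chains, whereas Cxcr3 was highest in knockout 2. Of the counts of Cxcr3 and the CD3 chains, Cxcr3 took 73.0% in knockout 2 (exact binomial interval 70.7% to 75.1%) and 10.4% in knockout 3 (9.55% to 11.4%). The share was 59.4% in knockout 1 and 55.6%, 13.0%, 24.1% and 11.5% in wild-type mice 1 to 4. The ligand gene Cxcl9 was likewise higher in knockout 2 than in knockout 3, at 647 and 499 CPM, and measured 40.5 CPM in knockout 1 and 37.3 to 196 CPM in wild-type mice. Cxcl9 had a log2 fold change of 1.82 (SE 0.80, edgeR adjusted p = 0.92).

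No member passed the test between genotypes. With edgeR's quasi-likelihood test and Benjamini-Hochberg adjustment over all tested genes, 0 of 38 members had an adjusted p under 0.05, where 0.037% of all genes did. The fold change, knockout over wild-type, was positive for 33 and negative for 5 members, with a median log2 value of 0.81 against -0.0016 over all tested genes. The median SE was 1.11 for the members and 0.30 for all tested genes, and the median biological coefficient of variation was 100.2% and 31.6%. At an unadjusted p under 0.05 there were 4 members higher (2.57% of all genes) and 1 lower (2.79% of all genes). None of the 38 was higher in every knockout than in every wild-type library (2.8% of all genes) and 1, Il7r, was lower (3.33% of all genes).

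The 5 members were Cd8b1, Lag3, Pdcd1, Cxcr3 and Il7r. Cd8b1 had a log2 fold change of 2.91 (SE 1.04, edgeR adjusted p = 0.84) and Lag3 one of 2.88 (SE 0.77, edgeR adjusted p = 0.73). Pdcd1 had 2.09 (SE 0.90, edgeR adjusted p = 0.92) and Cxcr3 1.88 (SE 0.71, edgeR adjusted p = 0.90). Il7r had -1.11 (SE 0.27, edgeR adjusted p = 0.66). For comparison, Cd3e had 1.85 (SE 1.19), Cd8a 2.72 (SE 1.54) and Gzmb 1.17 (SE 1.09), each with an edgeR adjusted p of 1.00. DESeq2 called 2 members, Lag3 higher (log2 fold change 2.90, adjusted p = 0.027) and Il7r lower (-1.11, adjusted p = 0.031), where it called 0.702% of all genes. Over the 14 alternatives the adjusted p of Lag3 ran from 0.027 to 1.00 and that of Il7r from 0.031 to 1.00.

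The direction of most members rested on knockout 3. Without it, 4 of 38 members had a positive fold change and the median was -1.27, and without knockout 1 it was positive for 38 of 39 with a median of 1.30. The 4 members that stayed positive without knockout 3 were Cd8b1 (0.57), Lag3 (2.43), Klrk1 (0.64) and Cxcr3 (2.05). The value of Cxcr3 was 0.73 without knockout 2, its highest library, against 1.88 with all libraries. With edgeR, 0 of 39 members were called without knockout 1 (0.0825% of all genes) and 0 of 38 without knockout 3 (0.0237% of all genes). At an unadjusted p under 0.05 there were 10 of 39 without knockout 1 (9.8% of all genes) and 6 of 38 without knockout 3 (5.85% of all genes). The lowest adjusted p without knockout 1 was 0.069, for Lag3.

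**Figure D5:**
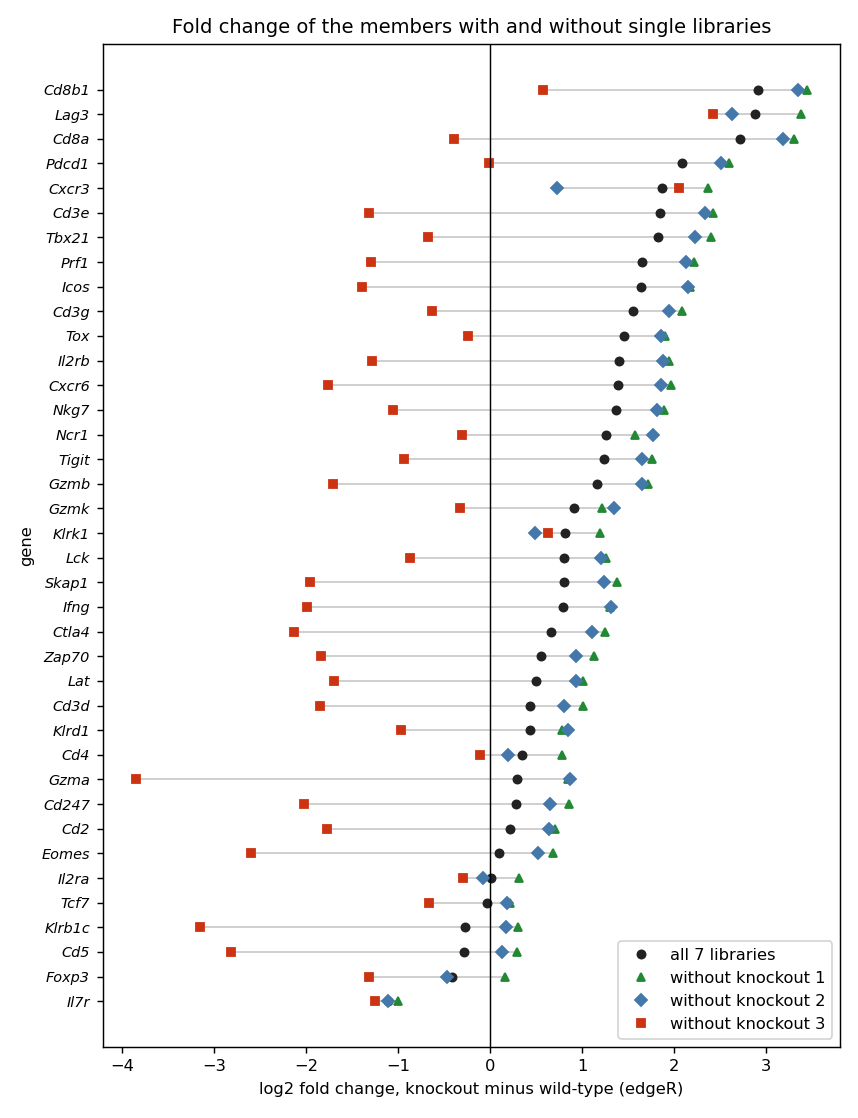
Log2 fold change of the 38 tested members (horizontal axis, knockout minus wild-type, edgeR) with all 7 libraries and without knockout 1, 2 or 3, and with grey lines spanning the 4 values. Without knockout 3 the values of all but 4 members lie below 0.

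Genes of the same pathways that were not members were also mostly highest in knockout 3. Of 66 such genes with a row, 59 were tested, of which 40 had a positive and 19 a negative fold change, with a median of 0.48, and 0 were called. Knockout 3 was the highest library for 43 of the 59. The receptor constant segments Trac, Trbc1 and Trbc2 had positive fold changes and Trdc a negative one, and Trac measured 7.24, 17.5, 27.7 and 19.4 CPM in wild-type mice 1 to 4 and 4.99, 11.4 and 97.8 CPM in knockout mice 1 to 3. Of 20 other T cell receptor pathway genes 13 were positive, of 18 T cell state genes 11, and of 18 NK genes 13. The NK list includes genes that macrophages use, such as the Fc receptor gene Fcgr4. Fcgr4 measured 98.5, 302, 164 and 177 CPM in wild-type mice 1 to 4 and 117, 599.5 and 375 CPM in knockout mice 1 to 3. It was counted among the 13 positive genes of the NK list, was highest in knockout 2 and did not follow the CD3 chains.

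Variable segments of the receptor alpha chain were detected for 15, 15, 33 and 20 of 128 genes in wild-type mice 1 to 4 and for 3, 15 and 45 in knockout mice 1 to 3. Variable segments of the beta chain were detected for 13, 12, 17 and 18 of 35 genes and for 7, 11 and 20. Knockout 1 had 62 alpha and 105 beta counts over its few segments, while knockout 2 had 55 and 43 counts over more of them. Knockout 3 had the most segments and the most counts, 524 and 741.

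Markers of other cells were read beside these values, and their part in the results was not tested. MC38, fibroblast and endothelial cells lack CD45, which the gate required. How completely the sort removed them was not tested. Among B cell genes, Cd79a and Ms4a1 were at most 0.292 and 0.987 CPM in any library. Cd79b was 41.01 and 27.4 CPM in knockout 2 and 3 against 6.73 to 19.3 CPM elsewhere, and Cd22 was 26.6 and 26.1 CPM there against 2.75 to 17.1 CPM elsewhere. The neutrophil sum was 83.4 to 215 CPM, with Csf3r at 53.3 to 181 CPM and Ly6g at 0 in all libraries. The eosinophil sum was 0.208 to 16.8 CPM. Plasma cell markers Jchain and Tnfrsf17 were at 0 in all libraries, within a sum of 348 to 468 CPM from Xbp1 and Sdc1. Sums of conventional dendritic (38.8 to 118 CPM), plasmacytoid dendritic (418 to 900 CPM) and mast cell and basophil markers (2.67 to 13.8 CPM) did not have their highest value in knockout 3. Neither did those of endothelial (33.8 to 173 CPM), red cell (0 to 1.30 CPM) and platelet markers (94.4 to 297 CPM). Of the 8 conventional dendritic genes, 3 had a positive and 5 a negative fold change, with 0 called. Xcr1 and Clec9a were highest in knockout 3. Xcr1 measured 10.7, 18.9 and 20.4 CPM in knockout mice 1 to 3 and 4.32 to 8.86 CPM in wild-type mice. Clec9a measured 3.35, 3.70 and 3.71 CPM in those knockout mice and 0.125 to 3.32 CPM in wild-type mice. Bst2 (341 to 768 CPM) made up most of the plasmacytoid dendritic sum, where Siglech was at most 2.56 CPM. Pf4 (91.3 to 293 CPM) made up most of the platelet sum. Pecam1 held 163 CPM of the endothelial sum in wild-type 2, the highest library for that sum. Monocyte markers summed to 726, 523 and 353 CPM in knockout mice 1 to 3 and to 738 to 4177 CPM in wild-type mice. Chil3 held 3241 CPM of that sum in wild-type 2. Ccr2 measured 489, 428 and 294 CPM in knockout mice 1 to 3 and 621 to 871.5 CPM in wild-type mice. Its edgeR adjusted p was 0.73. Knockout 3 was the lowest library for fibroblast markers, at 37.7 CPM against 124 to 328 CPM elsewhere. MC38 and epithelial markers measured 78.0 CPM in knockout 3, 41.9 CPM in knockout 2 and 126 to 451 CPM elsewhere. Cdh1 made up most of this sum, at 76.0 CPM in knockout 3, 37.6 CPM in knockout 2 and 123 to 437 CPM elsewhere. Epcam was at most 5.30 CPM and Krt18 at most 4.42 CPM in any library. The summed CPM of genes induced by interferon gamma was highest in knockout 2, at 101000 CPM against 62980 CPM in knockout 3. It was 12870 CPM in knockout 1 and 14670 to 59580 CPM in wild-type mice. Most of the sum came from Cd74, H2-Ab1 and H2-Aa, at 49980, 33550 and 15440 CPM in knockout 2. Irf1 and Nlrc5 were highest in knockout 3, Ciita, Socs1 and Ido1 in wild-type 2, and the other genes in knockout 2. Of the 11 tested genes, 10 had a positive fold change, with 0 called. The T cell attracting chemokines and Il15 were positive for 6 of 6 with 0 called, and they too were highest in knockout 2, at 3057 CPM against 2085 CPM in knockout 3.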

How the data were processed

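Polyadenylated RNA of macrophages sorted from tumours was sequenced from 7 libraries, 1 per mouse, made with a Takara SMART-seq kit, per the labels' protocols. The values are raw read counts per gene, deposited by the authors as 1 table for all libraries. Per the submitters' processing notes, the tools named include BWA 0.7.12, FastQC 0.11.5, cutadapt 1.15 and DESeq2 1.24.0, and the build named is GRCm38 (mm10). Neither the counting program nor its use of strand is stated in those notes, and reads of overlapping genes cannot be told apart. A further 16 rows without a gene symbol held 0.000338% of counts. Total counts ranged from 22449772 to 30483733.

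Counts were scaled by TMM, filtered with filterByExpr and tested with edgeR 4.0.16 (R 4.3.3, limma 3.58.1) by the robust quasi-likelihood test of genotype over all 7 libraries, two-sided, with Benjamini-Hochberg adjustment over 16234 genes and a threshold of 0.05. CPM are counts scaled to TMM-adjusted library size. Gene positions are from GENCODE on GRCm38, and the 250-base promoter windows from RefSeq GRCm38.p6. Shares of counts carry exact (Clopper-Pearson) 95% binomial intervals, and a count of 0 was read as allowing up to 3 counts. The fitting script was tested on simulated data.

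Replicate pairs of a group differed beyond sampling noise, with a chi-square per degree of freedom of 30.35 or more. The p-values weigh the difference between genotypes against the spread between these mice. The members and gene lists were chosen with earlier results of these data known. Every member was named, and those with a mean of at least 1 CPM, 38 of 39, were given in every library. Fold changes with statistics were given for 8 members. Alternatives were 2 scalings, 2 filters, DESeq2 1.42.0, limma voom with quality weights, the replicate number as a block and leaving out each library.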

Additional observations from a re-analysis of the deposited data

Results flagged for a closer look

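Among 51 sets of 4 wild-type values examined, covering single members and summed lists, 5 held a library far from the other wild-type libraries. Chance gives about 1 in 20 for independent sets, but these sets share genes, such as Cd247 within the CD3 and zeta sum. Each number below is the gap from the library set apart to its nearest neighbour as a share of the group's whole range. Each was above Dixon's critical value at 95%. Wild-type 1 was far below the others for Cd247 (0.846), for Ctla4 (0.858), for the summed CPM of the CD3 and zeta chains (0.929) and for the summed CPM of the interleukin receptors (0.981). Wild-type 4 was far above the others for Ncr1 (0.888). The 3 knockout libraries were too few for this comparison.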

How the results depend on the processing

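Of 163 recomputed values over 14 settings, 150 were classed as unchanged. For a fold change this meant the same side of the threshold and the same direction. For a count of genes or members it meant an equal or similar count. For a value without a test it meant a shift of less than 1 SD between libraries, pooled within genotypes. Values of this last kind include the difference in the summed CPM of the CD3 and zeta chains, knockout minus wild-type. It was 33.6 CPM with all libraries and turned to -15.7 CPM without knockout 3. The count of genes past the threshold, 6 with edgeR, was 11 without a filter on low counts, 114 with DESeq2 and 3 to 14 when a library was left out. The count of members past it, 0 with edgeR, was 2 with DESeq2 (Lag3 and Il7r, which had log2 fold changes of 2.90 and -1.11 there) and 0 whichever library was left out. The median log2 fold change of the members ran from -1.27, without knockout 3, to 1.30, without knockout 1. With a library left out, log2 fold changes ran from -1.32 to 2.42 for Cd3e, from -0.39 to 3.31 for Cd8a, from -0.013 to 2.60 for Pdcd1 and from -1.71 to 1.72 for Gzmb, and the sign changed in each case without knockout 3. The cause was not tested.

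Mice with the same number were not shown to be paired, since the correlations of their deviations from the group means were 0.066, 0.051 and 0.088. With the replicate number as a block, 1 gene passed the threshold and 0 members did, and the median log2 fold change of the members was 0.43.

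With 4 and 3 mice and a median coefficient of variation of 100.2% for the members, their fold changes carry wide errors, and a p above the threshold does not show equal levels.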
